A study of Mus musculus with 12 samples.

Results

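Globin transcripts in the E15.5 mouse ovary came almost wholly from the somatic fraction and were almost wholly of the adult type. The 9 members were the rows of the count table named Hba-a1, Hba-a2, Hba-x, Hbb-bs, Hbb-bt, Hbb-y, Hbb-bh1, Alas2 and Slc4a1, out of 54532 gene rows in all. They were taken by name from a list chosen with earlier results of these data known, and each matched 1 row. Ovaries came from embryos of the Tg(Pou5f1-EGFP)2Mnn reporter strain, in which germ cells are GFP positive, and every group carried this reporter. Pregnant dams were injected daily from E12.5 through E15.5 with saline or with dexamethasone (dex), a drug that activates the glucocorticoid receptor, at a dose of 10 µg per gram. Cells were then sorted by flow cytometry into a GFP positive germ fraction and a GFP negative somatic fraction, with 3 libraries for each of the 4 combinations of fraction and treatment. The somatic fraction held every GFP negative cell of the dissociated ovary, and no blood cell marker was used in the sort. Each library was a pool of ovaries from at least 2 dosed litters.

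Red blood cells carry oxygen on haemoglobin, a tetramer of alpha-type and beta-type globin chains, each with a haem group. The mouse embryo first makes red cells in the yolk sac, and these express the embryonic globins Hba-x, Hbb-y and Hbb-bh1. Later red cells arise in the fetal liver and express the adult genes Hba-a1 and Hba-a2 at the alpha locus and Hbb-bs and Hbb-bt at the beta locus. Alas2 encodes the erythroid form of the enzyme that starts haem synthesis, and Slc4a1 encodes the band 3 anion exchanger of the red cell membrane.

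The alpha genes lie on chromosome 11 of GRCm38 on the plus strand, Hba-x at chr11:32276400-32278116, Hba-a1 at chr11:32283511-32284465 and Hba-a2 at chr11:32296489-32297298. The beta genes lie on chromosome 7 on the minus strand, Hbb-bt at chr7:103812524-103813996, Hbb-bs at chr7:103826534-103828096, Hbb-bh1 at chr7:103841637-103843164 and Hbb-y at chr7:103851749-103853216. Alas2 is at chrX:150547375-150570638 on the plus strand and Slc4a1 at chr11:102348824-102366203 on the minus strand.

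The adult genes of each locus are near copies, so the sequence that tells them apart is shown first. In the GENCODE M21 transcripts the coding sequences of Hba-a1 and Hba-a2, 429 bases each, differed at 1 base, C381T, counted from the first base of the start codon with the Hba-a1 base first. Those of Hbb-bs and Hbb-bt, 444 bases each, also differed at 1 base, C417T, with the Hbb-bs base first. Both pairs encode the same protein. The 41 bases around each difference, all within coding exon 3, are given with the differing base in capitals, at chr11:32284323-32284363 for Hba-a1, chr11:32297140-32297180 for Hba-a2, chr7:103826672-103826712 for Hbb-bs and chr7:103812663-103812703 for Hbb-bt.
Hba-a1: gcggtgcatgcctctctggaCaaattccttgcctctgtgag
Hba-a2: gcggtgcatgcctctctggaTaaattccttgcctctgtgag
Hbb-bs: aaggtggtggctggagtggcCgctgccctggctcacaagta
Hbb-bt: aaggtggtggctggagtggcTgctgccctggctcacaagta
Over the whole aligned transcripts, without gaps, Hba-a1 and Hba-a2 differed at 1 of 538 bases and Hbb-bs and Hbb-bt at 46 of 626. Reads shared by 2 copies can be split or dropped by a read counter, and how the authors treated reads with several hits was not given in the sources used here. The separate levels of Hba-a1 and Hba-a2, and of Hbb-bs and Hbb-bt, are therefore uncertain, and each pair was also tested as 1 summed row. The embryonic genes are set further apart, Hbb-y sharing 74.3% of aligned coding bases with Hbb-bs and Hba-x sharing 62.6% with Hba-a1.

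The promoters of 1 adult and 1 embryonic gene are shown from the beta locus. Hbb-bs was taken because 2 other adult genes correlated with it across the somatic libraries, as described further on. Hbb-y was taken as the embryonic gene with the highest mean FPKM in saline somatic cells. The 120 bases before the RefSeq start are given for Hbb-bs (GRCm38.p6, chr7:103827929-103828048) and Hbb-y (chr7:103853208-103853327), both on the minus strand, read 5′ to 3′ along the gene. Capitals mark matches, on either strand, to a CACCC box, to a CCAAT box, to the GATA-type motif AGATAA and to the TATA-type motif TATAA or its variant spelled ATAAAA.
Hbb-bs: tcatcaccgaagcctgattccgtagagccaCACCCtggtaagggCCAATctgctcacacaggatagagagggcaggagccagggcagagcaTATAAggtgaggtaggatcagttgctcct
Hbb-y: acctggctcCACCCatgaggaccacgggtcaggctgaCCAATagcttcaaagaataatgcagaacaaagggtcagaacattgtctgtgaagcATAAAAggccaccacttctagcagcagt
Both windows held the CACCC and the CCAAT box, and near the start Hbb-bs held the TATAA form and Hbb-y the ATAAAA form. Neither window held the GATA-type motif, of which Hbb-bs had 1 match farther out, 210 bases before the start. Of 32851 promoters in the RefSeq table, searched over 250 bases, 52.01% held the CACCC box, 33.8% the CCAAT box, 9.99% the GATA-type motif, 22.8% the TATAA form and 16.97% the ATAAAA form, so most of these letters are common. A match describes the letters and is not evidence of a bound site.

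Library depth was 14658503 to 18245507 counts, and it overlapped between the fractions. Levels between libraries are given as CPM (the count scaled to library total and TMM factor), and levels between genes as FPKM (fragments scaled to gene length and depth). A count of 3 was taken as the floor, between 0.169 and 0.201 CPM. Germ cell markers summed to 2001 to 2392 CPM in the germ libraries and to 2.58 to 18.9 CPM in the somatic libraries, while stromal markers summed to 14228 to 18476 CPM in the somatic libraries and 94.2 to 203 CPM in the germ libraries. Some marker sums did not overlap between treatments in the somatic fraction. That of 6 macrophage markers was 157 to 204 CPM after saline and 43.4 to 105 CPM after dex, that of 6 germ cell markers was 2.58 to 4.90 CPM after saline and 15.04 to 18.9 CPM after dex, and that of 6 megakaryocyte and platelet markers was 9.43 to 13.6 CPM after saline and 7.61 to 9.29 CPM after dex. In the germ cell sum, Dazl ran from 0.971 to 1.35 CPM after saline and from 12.6 to 12.9 CPM after dex. Ddx4, Sycp3 and Stra8 overlapped between treatments in the somatic libraries, and Pou5f1 and Dppa3 held 0 to 3 counts there. The part of these marker sums in the results below was not tested. In bulk libraries, fewer red cells and less globin RNA per red cell cannot be told apart.

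**Figure D1:**
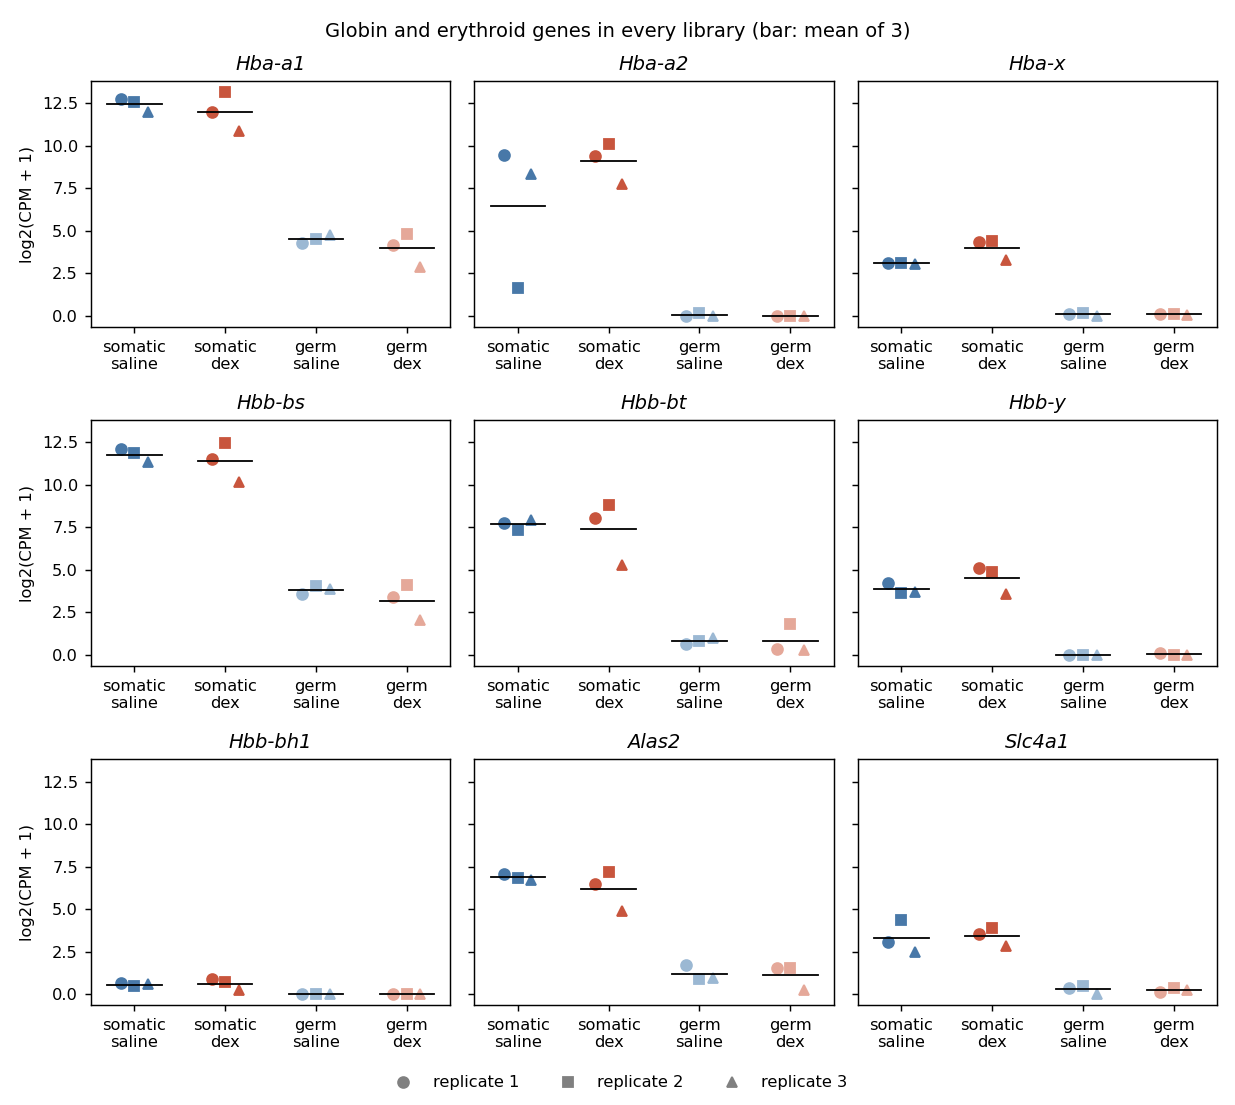
Level of each of the 9 genes as log2(CPM + 1) in all 12 libraries, with the mean of the 3 log values as a bar and the marker shape giving the replicate number. For Hba-a1, Hbb-bs, Hbb-bt and Alas2 the somatic libraries lie above the germ libraries. The share of all genes that separate in this way was not taken. Hba-a2, Hba-x, Hbb-y, Hbb-bh1 and Slc4a1 had only 0 to 7 counts in each germ library. Hba-a2 in the second saline somatic library falls far below the others of its group.

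Among somatic libraries after saline, the adult genes led by far. Hba-a1 measured 6865 ± 1768 FPKM (SD, n = 3) and Hbb-bs 4505 ± 1142 FPKM. Hba-a2 measured 506 ± 518 FPKM and Hbb-bt 287 ± 55.9 FPKM, whose ranges overlapped. The embryonic genes came much lower, with Hbb-y at 21.3 ± 5.17 FPKM, Hba-x at 7.82 ± 0.173 FPKM and Hbb-bh1 at 0.759 ± 0.144 FPKM. Alas2 lay between the adult and embryonic globins at 47.0 ± 6.56 FPKM, and Slc4a1 was low at 2.10 ± 1.59 FPKM. Of the neighbours in this order, Hba-a1 and Hbb-bs overlapped in range, as did Hba-a2 and Hbb-bt, whereas no other neighbouring pair did.

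The whole of the globin RNA differed widely between libraries of 1 group. Globins took 0.787%, 1.595% and 0.331% of counts in the 3 dex somatic libraries and 1.23%, 1.02% and 0.737% in the 3 saline ones. The dex libraries therefore enclosed the whole saline range. Within the dex group, the highest library exceeded the lowest 4.89-fold for Hba-a1, 4.86-fold for Hbb-bs, 11.96-fold for Hbb-bt and 5.05-fold for Alas2, against a median of 1.198-fold over the 15205 genes whose group mean reached 1 CPM. Within the saline group the corresponding values were 1.70-fold for Hba-a1, 1.69-fold for Hbb-bs, 1.47-fold for Hbb-bt and 1.30-fold for Alas2, against a median of 1.16-fold over 15162 genes. Other members were wider after saline than after dex, Hba-a2 at 345-fold against 5.23-fold and Slc4a1 at 4.24-fold against 2.26-fold. The embryonic genes were narrower after saline, Hba-x at 1.04-fold against 2.32-fold and Hbb-y at 1.51-fold against 3.03-fold.

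Dex was compared with saline in the somatic fraction to ask whether the drug moved the members. Of the 9 members, 8 passed the low-count filter (Hbb-bh1 did not), and 1 was called by edgeR's quasi-likelihood test at a Benjamini-Hochberg adjusted p-value of at most 0.05, against 8.18% of all 16556 genes tested. The 1 called member was Hba-x, the embryonic alpha globin, which rose after dex. It measured 19.1, 20.3 and 8.74 CPM after dex and 7.74, 7.48 and 7.46 CPM after saline, so that every dex library lay above every saline library. The log2 fold change was 1.08 (SE 0.25, edgeR adjusted p = 0.017). The call rested on all libraries but 1: without the first or second dex library its adjusted p was 0.0589 or 0.0939, and without the first, the second or the third saline library it was 0.0679, 0.0647 or 0.0854. Without the third dex library, the lowest of its group, the log2 fold change was 1.38.

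Hbb-y, the embryonic beta globin, stood at 33.5, 28.6 and 11.1 CPM after dex and at 17.7, 11.7 and 12.2 CPM after saline. In the third dex library it lay below every saline library, so the groups overlapped. The log2 fold change was 0.81 (SE 0.30) and did not pass the test (edgeR adjusted p = 0.134). The third embryonic gene, Hbb-bh1, had 14, 11 and 3 counts after dex and 9, 6 and 8 after saline, too few to separate the groups at this depth.

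The 4 adult globins did not pass the test. Hba-a1 measured 4117, 9132 and 1868 CPM after dex and 7013, 6100 and 4123 CPM after saline, with a log2 fold change of -0.19 (SE 0.38, edgeR adjusted p = 0.835). Hbb-bs measured 3011, 5647 and 1162 CPM after dex and 4374, 3730 and 2594 CPM after saline, with a log2 fold change of -0.12 (SE 0.38, edgeR adjusted p = 0.898). In both genes the second dex library was the highest and the third dex library the lowest of the 6. Hbb-bt measured 270, 449 and 37.6 CPM after dex and 221, 163 and 240 CPM after saline, and its log2 fold change was 0.28 (SE 0.52, edgeR adjusted p = 0.813). Hba-a2 measured 687, 1116 and 213 CPM after dex and 712, 2.06 and 327 CPM after saline, and its log2 fold change was 0.96 (SE 0.94, edgeR adjusted p = 0.630). The Hba-a2 value turned on single libraries: its log2 fold change was 0.38 without the second saline library, 0.36 without the second dex library and 2.03 without the first saline library. With Hba-a1 and Hba-a2 summed the log2 fold change was -0.09 (SE 0.38, edgeR adjusted p = 0.929), and with Hbb-bs and Hbb-bt summed it was -0.10 (SE 0.38, edgeR adjusted p = 0.922).

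Neither of the other members passed the test. Alas2 measured 89.1, 144 and 28.5 CPM after dex and 134, 111 and 103 CPM after saline (log2 fold change -0.41, SE 0.36, edgeR adjusted p = 0.576). Slc4a1 measured 10.8, 13.6 and 6.005 CPM after dex and 7.36, 19.8 and 4.67 CPM after saline (log2 fold change -0.06, SE 0.41, edgeR adjusted p = 0.954). Its second saline library was the highest of the 6. The median log2 fold change over the 8 tested members was 0.11, beside 0.00 over all genes tested. Its value turned on single libraries: it was -0.40 without the second dex library and 0.54 without the third, and -0.05 with the replicate number as a block.

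**Figure D2:**
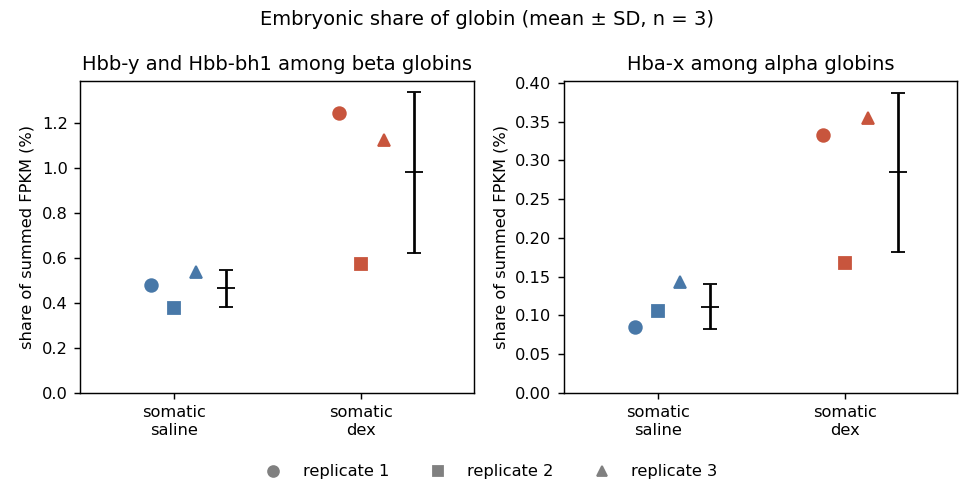
Embryonic share of summed FPKM in the 6 somatic libraries, for the beta locus on the left and the alpha locus on the right, with points for libraries and mean ± SD beside them. All 3 dex libraries lie above all 3 saline libraries in both panels. A share also rises where adult globin is low, and Hba-a1 and Hbb-bs were lowest in the third dex library.

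The embryonic genes were also set against their adult neighbours within each library, as shares of the globin FPKM of their locus. Adult genes make up nearly all of that globin, so a share also rises where adult globin is low. In the third dex library globins took 0.331% of counts, and Hbb-y itself, at 11.1 CPM, lay below every saline library. The second dex library, with the most globin at 1.595% of counts, had the lowest dex shares. Hbb-y and Hbb-bh1 made up 1.24%, 0.574% and 1.12% of beta globin FPKM after dex and 0.479%, 0.375% and 0.537% after saline. The mean was 0.980% ± 0.357 after dex and 0.464% ± 0.0817 after saline (SD, n = 3), a difference of 0.516 percentage points. Hba-x made up 0.332%, 0.167% and 0.354% of alpha globin FPKM after dex and 0.0849%, 0.106% and 0.143% after saline. The means were 0.285% ± 0.102 and 0.111% ± 0.0292 (SD, n = 3). In both loci every dex library lay above every saline library, and the 2-sided exact permutation test gave p = 0.1 for each, the smallest value that 3 libraries against 3 allow. The alpha share also counts Hba-a2, which was near 0 in the second saline library. The ratio of alpha to beta globin FPKM was 1.56 ± 0.136 after dex and 1.52 ± 0.0735 after saline (SD, n = 3, exact permutation p = 0.8), with overlapping ranges.

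**Figure D3:**
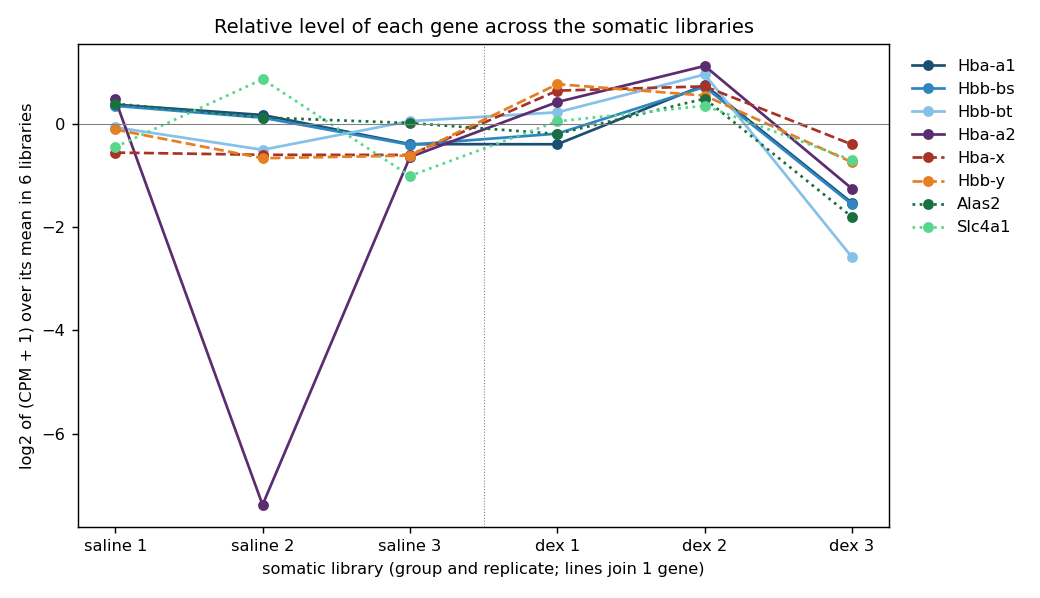
Log2 of CPM + 1 over its mean in the 6 somatic libraries, for 8 genes, with lines joining the values of 1 gene. Hba-a1, Hbb-bs and Alas2 run together and drop in the third dex library, Hba-x lies below its mean in all saline libraries and in the third dex library, and Hba-a2 drops by more than the other plotted genes in the second saline library.

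Across the 6 somatic libraries Hba-a1 and Hbb-bs moved together, while Hbb-bt and Hba-a2 kept their order after dex only. After dex Hbb-bt and Hba-a2 had the same order as Hbb-bs, and fell to 37.6 and 213 CPM in the third library. After saline Hba-a2 was lowest in the second library, at 2.06 CPM, beside 712 CPM in the first and 327 CPM in the third. After saline Hbb-bt was highest in the third library, at 240 CPM, where Hbb-bs was lowest, at 2594 CPM. Pearson's r of log2(CPM + 1) with Hbb-bs was 0.99 for Hba-a1 and 0.89 for Hbb-bt, and 0.09 for Hba-a2, as a description over 6 libraries that share depth and sort. Alas2 followed Hbb-bs (r = 0.96, exact permutation p = 0.0111, 0.0444 adjusted over 4 relations; Spearman's rho = 0.94, exact permutation p = 0.0167, 0.0667 adjusted; n = 6). Without the 2 libraries farthest from the median of Hbb-bs, r was 0.79. For Hbb-y the relation to Hbb-bs did not pass the test (r = 0.54, exact permutation p = 0.239, 0.242 adjusted; rho = 0.54, p = 0.297, 0.297 adjusted; n = 6), and r was -0.05 without the same 2 libraries. For Slc4a1 the values were r = 0.56 (exact permutation p = 0.242, 0.242 adjusted; n = 6) and rho = 0.66 (p = 0.175, 0.233 adjusted), and r was 0.41 without those libraries. Each treatment held 3 libraries, too few to give r within it. Hbb-y was closer to Hba-x, with r = 0.91 as a description.

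Outside the members, the genes whose log2 levels over the 6 somatic libraries were most like Hbb-bs among 15213 genes were Dleu2, Tnfsf13, Nsdhl, 3830408C21Rik and Gm44686, with r between 0.98 and 0.99. Those most like Hbb-y were Sfrp1, Sirt4, Eng, Ticam1 and Knl1, with r between 0.99 and 1.00. These names are a description, with no test.

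**Figure D4:**
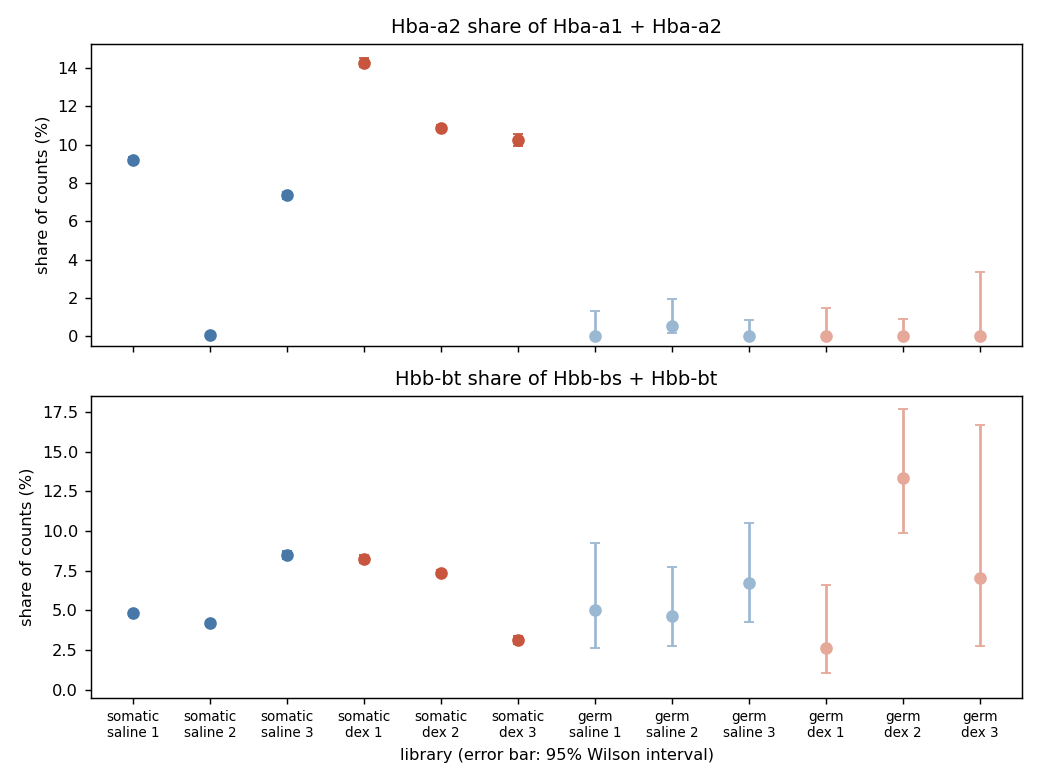
Hba-a2 as a share of Hba-a1 plus Hba-a2 counts, above, and Hbb-bt as a share of Hbb-bs plus Hbb-bt counts, below, in all 12 libraries with 95% Wilson intervals, which cover counting error only. Hba-a2 is close to 0 in 1 somatic library and in all germ libraries.

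The split between near-identical copies also varied between libraries. Hba-a2 took 14.3%, 10.9% and 10.2% of Hba-a1 plus Hba-a2 counts in the dex somatic libraries and 9.22% and 7.35% in the first and the third saline libraries. In the second saline library it took 0.0338% (95% Wilson interval 0.0240% to 0.0477%), 32 counts beside 94607 of Hba-a1. In the germ libraries it had 0 counts in 5 of 6 and 2 counts in the sixth, beside 110 to 447 counts of Hba-a1, and the upper Wilson limits ran from 0.852% to 3.37%. Germ libraries therefore lay below the 5 other somatic libraries beyond counting error. The part played by the way shared reads were assigned was not tested. Hbb-bt, whose transcript differs from Hbb-bs at more bases, took 3.13% to 8.46% of its pair in the somatic libraries and 2.65% to 13.3% in the germ libraries, with overlapping ranges.

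Somatic and germ cells were compared within each treatment to see how far the members follow the sort. The 4 members with enough counts to be tested within germ cells as well, Hba-a1, Hbb-bs, Hbb-bt and Alas2, were all higher in the somatic fraction after saline and after dex, beside 42.9% and 42.2% of all genes tested that were higher in somatic cells. Hba-a2, Hba-x, Hbb-y and Slc4a1 had 0 to 7 counts in each germ library and entered the test only through the somatic libraries, so their calls are not counted. After saline the log2 difference was 8.01 for Hba-a1 (SE 0.21, edgeR adjusted p = 4.53e-14), 8.04 for Hbb-bs (SE 0.21, edgeR adjusted p = 4.08e-14) and 6.44 for Alas2 (SE 0.20, edgeR adjusted p = 2.89e-13). For Hba-a1, Hbb-bs, Hbb-bt and Alas2 every germ library lay below every somatic library. The share of all genes that separate in this way was not taken. Germ CPM as a share of the somatic mean was 0.383% for Hba-a1, 0.375% for Hbb-bs and 0.371% for Hbb-bt after saline, and 0.338%, 0.299% and 0.399% after dex in the same order. The shares were higher for Alas2, at 1.16% after saline and 1.53% after dex, and for Slc4a1, at 2.09% and 1.65%, the latter resting on 8 to 11 counts summed over 3 germ libraries. Whether these shares differ between genes was not tested.

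The remaining globins were near 0 in germ cells, and their folds are bounds or counting ratios. Against a floor of 3 counts per library, Hba-a2 was at least 3345-fold higher in somatic than germ cells after dex, where all 3 germ libraries held 0 counts, and Hbb-y was at least 71.6-fold higher after saline. Hbb-bh1 had 0 counts in all 6 germ libraries and was at least 2.47-fold higher after saline and 2.73-fold higher after dex. Where germ libraries held a few counts, pooled ratios with 95% counting intervals were 8765 (2426 to 72385) for Hba-a2 after saline and 1160 (208 to 45847) for Hbb-y after dex. For Hba-x they were 126 (42.9 to 615) after saline and 255 (87.0 to 1240) after dex. The Hba-a2 folds rest on its uncertain split from Hba-a1. With Hba-a1 and Hba-a2 summed, the log2 difference was 8.09 (SE 0.21) after saline and 8.42 (SE 0.72) after dex.

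In the germ fraction, 4 members passed the low-count filter (Hba-a1, Hbb-bs, Hbb-bt and Alas2), and 0 were called between dex and saline by edgeR, 0 at an unadjusted p under 0.05 and 0 by DESeq2, against 0.208% of all genes called. Hba-a1 measured 17.01, 27.6 and 6.41 CPM after dex and 18.7, 21.9 and 25.5 CPM after saline. Hbb-bs measured 9.84, 16.4 and 3.09 CPM after dex and 11.05, 15.6 and 13.49 CPM after saline. The third dex library was the lowest in both genes and the second the highest, the same order by replicate number as in the somatic dex libraries. Over the 6 same-numbered pairs of somatic and germ libraries, r of Hbb-bs was 0.89 (exact permutation p = 0.0750, 0.15 adjusted; rho = 0.71, p = 0.136, 0.233 adjusted; n = 6), and -0.02 without the 2 farthest libraries, so the relation rests on those. For the difference of the dex effect between fractions, 8 members were tested and 0 were called by edgeR, 0 at an unadjusted p under 0.05 and 0 by DESeq2, against 1.62% of all genes.

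A wider list of 69 erythroid genes in 5 groups placed the members in context. Of these, 64 had at least 1 count and 56 were tested in the somatic fraction. There 8 were called, 3 higher and 5 lower after dex, 14.3% against 8.18% of all genes, with a median log2 fold change of -0.04 beside 0.00. The balance of directions turned on 1 library: without the second saline library 7 were higher and 0 lower, and with DESeq2 5 were higher and 4 lower. In the germ fraction 41 were tested and 1 was called, 2.44% against 0.208% of all genes. The list was not confined to the somatic fraction. Between fractions after saline 53 were tested, of which 38 were called higher in somatic and 9 higher in germ cells. Of all 17941 genes tested there, 7701 were higher in somatic and 7739 in germ cells. Tfrc, for example, measured 571 to 604 CPM in saline germ libraries and 59.8 to 65.3 CPM in saline somatic libraries.

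The other genes of the globin loci were nearly silent. None of these 7 genes passed the low-count filter. Hbb-bh0 had 2 counts over the 12 libraries, under the floor, and Hbq1b had 10 counts summed over the saline somatic libraries and 15 over the dex ones, so their order by FPKM was not resolved. Of 12 erythroid transcription factor genes tested in somatic cells, 2 fell after dex and 0 rose. Lmo2, a bridging subunit of the erythroid GATA1 and TAL1 complex that endothelial cells also express, fell (log2 fold change -0.83, SE 0.19, edgeR adjusted p = 0.0137). Zfpm1, a cofactor of GATA factors, fell as well (log2 fold change -0.42, SE 0.09, edgeR adjusted p = 0.0104). Ldb1, the most abundant of the group, measured 240 to 263 CPM after dex and 248 to 263 CPM after saline.

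Of 16 membrane and surface genes tested, 2 rose and 0 fell. Slc2a1, which encodes the glucose transporter GLUT1 and is widely expressed, rose from 73.4 to 84.4 CPM after saline to 110.5 to 131 CPM after dex (log2 fold change 0.67, SE 0.08, edgeR adjusted p = 0.000178). Gypc, which encodes glycophorin C, rose with a log2 fold change of 0.43 (SE 0.09, edgeR adjusted p = 0.00667). Of 16 haem synthesis and iron genes, 1 rose and 3 fell. Cpox, a late enzyme of haem synthesis, rose (log2 fold change 0.41, SE 0.10, edgeR adjusted p = 0.0225), while Ppox, the enzyme that follows it, fell (-0.26, SE 0.07, edgeR adjusted p = 0.0434). Tfrc, the transferrin receptor, fell (-0.51, SE 0.11, edgeR adjusted p = 0.0131), as did Slc11a2, an iron transporter (-0.35, SE 0.10, edgeR adjusted p = 0.0436). Fth1, the ferritin heavy chain and the most abundant gene of the group, measured 539 to 575 CPM after dex and 526 to 556 CPM after saline. Of 12 genes tested for the erythroid receptor, enzymes and maturation, 0 were called in somatic cells. Prdx2, its most abundant gene, measured 310 to 366 CPM after dex and 337 to 377 CPM after saline. Of the 8 called genes, Slc2a1 was called in all 12 alternative fits (largest adjusted p = 0.00283) and Gypc in 11, all those with 1 library left out among them. Without the second saline library Zfpm1, Lmo2, Tfrc, Cpox, Ppox and Slc11a2 were not called, with adjusted p from 0.0562 for Zfpm1 to 0.199 for Ppox. Without the third saline library the same genes other than Tfrc were not called, and without the second dex library Tfrc, Cpox, Ppox and Slc11a2 were not. Cpox, Ppox and Slc11a2 also lost their calls without the first saline library, and Ppox and Slc11a2 without the first dex library. In germ cells Kit, the stem cell factor receptor that germ cells themselves express, fell from 158 to 184 CPM after saline to 106 to 123 CPM after dex (log2 fold change -0.58, SE 0.08, edgeR adjusted p = 0.00958).

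**Figure D5:**
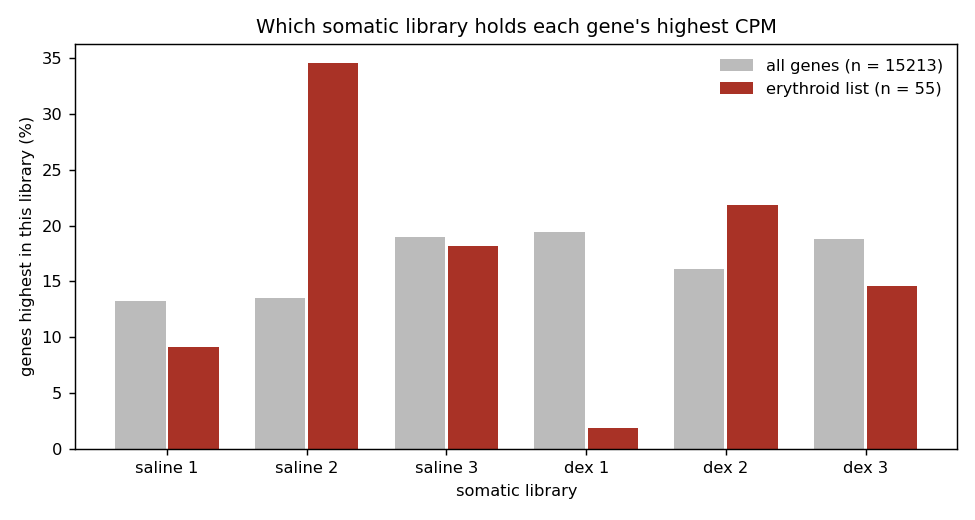
Share of genes whose highest CPM among the 6 somatic libraries fell in each library, for 55 genes of the erythroid list and for all 15213 genes whose mean reached 1 CPM. The erythroid list peaks in the second saline library and in the second dex library.

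The members and the wider list were also described by the library in which each gene was highest. Of the 8 members with a mean of at least 1 CPM, 6 were highest in the second dex somatic library. Of the 55 genes of the wider list at that level, 19 were highest in the second saline library, 34.5% beside 13.48% of all genes, and 12 in the second dex library, 21.8% beside 16.1%. Slc4a1 was also highest in the second saline library. Hemgn, an erythroid nuclear protein gene named here after its values were seen, measured 4.06 CPM in the second saline library, against 0 to 2.20 CPM in the other somatic libraries.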

How the data were processed

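RNA-seq was done on 12 libraries from sorted E15.5 ovary cells, 3 per group. According to the study's methods and the submitters' processing notes, the authors aligned read pairs to mm10 with HISAT2 2.0.5, and counted fragments per gene with featureCounts 1.5.0-p3. The annotation release, the strand setting and the treatment of reads with several hits were not given in the sources used here. The authors deposited raw counts per gene and FPKM, which are scaled to gene length and depth. The deposited tables of the authors' own DESeq2 1.20.0 comparisons, holding fold changes and p-values, were not used.

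The main test was edgeR 4.0.16 (quasi-likelihood, TMM scaling, filterByExpr, no covariate, R 4.3.3) on the deposited counts of the libraries compared, with Benjamini-Hochberg adjustment over all genes and a threshold of 0.05. The difference between fractions used all 12 libraries. Globin shares were compared by 2-sided exact permutation tests (scipy 1.17.1). The scripts were tested on simulated data. Alternatives were DESeq2 1.42.0, RLE scaling, no low-count filter, a replicate block, a fit over all 12 libraries, members left out of library totals, each library left out, raw counts in place of FPKM, and a pseudocount of 0.1. Summing each adult gene pair was added after seeing the data.

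The members and lists were chosen with earlier results of these data known. Named genes were the 9 members, and per list group each gene called between dex and saline in either fraction, at most 6, plus the gene with the highest FPKM in saline somatic cells. For likeness, the 5 genes with the highest r with Hbb-bs or Hbb-y were taken. The erythroid genes were matched by symbol, 68 of 69 being listed. The 3 libraries of a group were separate pools, and they differed beyond sampling noise. Intervals and floors cover counting error only.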

Additional observations from a re-analysis of the deposited data

Results flagged for a closer look

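In 2 genes of the wider erythroid list the dex effect differed between germ and somatic cells by the test of the difference itself, on all 12 libraries. For Kit the germ effect minus the somatic effect was -0.94 on the log2 scale (SE 0.13, edgeR adjusted p = 0.000955). Kit fell in germ cells, whereas in somatic cells its log2 fold change of 0.34 did not pass the test (edgeR adjusted p = 0.0511), though it did with DESeq2 (adjusted p = 0.0481), without the low-count filter (0.0241) and with the replicate block (0.0386). For Slc2a1 the difference was -0.72 (SE 0.14, edgeR adjusted p = 0.0153), with a rise in somatic cells and a log2 fold change of -0.04 in germ cells (edgeR adjusted p = 0.945). The Slc2a1 difference lost its call without the second dex or second saline somatic library or the third saline germ library, with adjusted p-values of 0.0523, 0.0519 and 0.0557. None of the 8 members tested passed this test, and Hbb-bh1 was not tested. Of those 8, Hba-a2, Hba-x, Hbb-y and Slc4a1 had 0 to 7 counts in each germ library, too few to show a difference. No group held the 4 libraries that a search for single outlying libraries needs.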

How the results depend on the processing

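The number of members called in somatic cells between dex and saline was 1 in the main fit, with DESeq2, with RLE scaling, with members left out of the totals and with all 12 libraries in 1 fit. It was 6 without the low-count filter, and 0 to 3 when 1 library was left out, with 0 in 5 of 6 omissions and 3 (Hba-x, Hbb-y and Hbb-bt) without the third dex library. Hba-a1, Hbb-bs, Hbb-bt and Alas2 were called higher in somatic cells in every alternative that tested them, and 0 members were called between treatments in germ cells or for the difference between fractions in any alternative. The erythroid list held 8 called genes in somatic cells, 12 without the low-count filter, 4 with all 12 libraries in 1 fit and 3 to 10 with 1 library left out. In germ cells it held 1, 2 with DESeq2, 5 without the filter, and 1 to 2 with 1 library left out.

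The labels do not say that same-numbered libraries are pairs, and the main fits did not pair them. Between fractions of 1 treatment, the correlations of deviations were 0.054 to 0.099 for the same number. Those of different numbers were all negative there, from -0.061 to -0.0099. Deviations from a group mean cancel within the group, so positive values for the same number make the others negative on balance. The negative values are therefore not separate evidence of pairing. Between treatments of 1 fraction, the same-numbered correlations ran from -0.01 to 0.13. Every library correlated best with its own number between fractions of 1 treatment, but not between treatments of 1 fraction. With the replicate block, 2 members were called in somatic cells (Hba-x and Hbb-y, adjusted p = 0.0452), the log2 fold change of Hbb-bt turned to -0.18 in somatic and -0.091 in germ cells, and that of Slc4a1 to 0.076, none of the last 3 called. The block changed no other call of a member. Summing each adult pair gave -0.091 for the alpha pair in somatic cells, where Hba-a2 alone gave 0.96, and for the beta pair -0.096 in somatic and -0.39 in germ cells, where Hbb-bt alone gave 0.28 and 0.38.

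Leaving out 1 library also moved the log2 fold changes of genes that were not called in the main fit. In somatic cells they ran from -0.96 to 0.21 for Hba-a1, -0.79 to 0.28 for Hbb-bs and -0.45 to 0.79 for Hbb-bt. They ran from -1.004 to 0.0035 for Alas2, -0.43 to 0.75 for Slc4a1 and -0.049 to 0.0056 for Ldb1. Of these, Hbb-bt was called without the third dex library. In germ cells the log2 fold changes ran from -0.92 to 0.020 for Hba-a1 and -1.60 to 0.85 for Hbb-bt. For Alas2 they ran from -0.41 to 0.56 and for Slc2a1 from -0.11 to 0.016. The difference in the alpha to beta ratio ran from -0.017 to 0.111. The embryonic shares kept their direction in every alternative. The causes were not tested. Low counts left Hbb-bh1 untested in every main fit, and Hba-a2, Hba-x, Hbb-y and Slc4a1 untested between treatments in germ cells.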
